A study of Mus musculus with 39 samples.

Results

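The 10 genes described here encode transcription factors of the AP-1 family or factors that injured nerves are known for. They are Jun, Junb, Jund, Fos, Fosb, Fosl1, Fosl2, Atf3, Runx2 and Olig1, taken by symbol from the 55573 genes of the count files and followed through every group. All 10 passed the filter on low counts, which left 18442 genes to test.

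AP-1 is a dimer of a Jun protein with another Jun protein or with a protein of the Fos or Atf families, held together by a leucine zipper and bound to DNA through the adjacent basic region. Fos, Fosb, Junb and Jun are also immediate-early genes, which cells switch on within minutes of a stimulus without new protein synthesis, whereas Jund is expressed at a steadier level. In peripheral nerve, Jun is the best known regulator of the repair state that Schwann cells adopt after injury, Atf3 marks injured nerve cells and glia, and Runx2 and Olig1 are lineage factors of bone and of oligodendrocytes that injured Schwann cells also switch on.

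Bulk RNA-seq was performed on endoneurium of the distal sciatic nerve, the tissue that encloses axons, Schwann cells, macrophages, fibroblasts and vessels. All mice were of the C57BL/6 strain, aged 2 to 4 months and carried floxed Lepr alleles (Leprfl/fl). Lepr-ctrl mice had no Cre. Lepr-cKO mice (Leprfl/fl::Dhh-Cre) had, in addition, the Cre recombinase under Dhh regulatory sequences, which are active in Schwann cells. The paper describes the loss of Lepr as selective for Schwann cells, and recombination in other cells of the tissue was not tested here. The sciatic nerve of 1 side was crushed (injured) and the contralateral nerve served as the healthy nerve, collected 2 or 4 weeks post crush (wpc). The 22 mice gave 39 libraries, since 17 mice contributed a healthy and an injured nerve and 5 mice a single nerve. Groups are given in the order Lepr-ctrl then Lepr-cKO. At 2 wpc there were 5 and 6 healthy and 5 and 5 injured nerves, and at 4 wpc 5 and 5 healthy and 4 and 4 injured nerves. Mice of the 2 times were different animals, so a difference between times cannot be told apart from a difference between the cohorts.

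Total counts ranged from 10905806 to 45016322 per library, so that 1 CPM, the unit of counts scaled to library size, stood for 10.9 counts in the smallest library. Lepr, the targeted gene, measured 5.79 to 14.8 CPM in healthy and 20.8 to 121 CPM in injured nerves, and its difference between genotypes did not pass the test in injured nerves at 2 wpc (log2 fold change 0.39, adjusted p = 0.939) or 4 wpc (-0.54, adjusted p = 0.362). Gene counts do not resolve the floxed exon, and the libraries hold cells without Cre, so this does not check the genotype labels closely. The summed level of 8 Schwann cell markers was 84000 to 115000 CPM in healthy and 11200 to 78900 CPM in injured nerves, and that of 8 macrophage markers was 93.0 to 318 and 900 to 4240 CPM, with no marker of either list at 0 in any library. Of the Schwann cell markers 5, 6, 6 and 3 of 8 fell with injury in Lepr-ctrl at 2 wpc, Lepr-cKO at 2 wpc, Lepr-ctrl at 4 wpc and Lepr-cKO at 4 wpc, while 7, 7, 8 and 8 of 8 macrophage markers and all 6 T cell markers rose. Of 5 adipocyte markers 5, 1, 5 and 1 rose, and their sum was 0.279 to 154.5 CPM in healthy and 14.7 to 871 CPM in injured nerves. Each of them but Fabp4 was at 0 in 9 to 16 of the 39 libraries. The share of mitochondrially encoded counts was 1.92 to 4.25% in healthy and 2.95 to 33% in injured nerves. The part of these shifts in the responses below was not tested, and in bulk tissue fewer cells of a type and less RNA per cell cannot be told apart. Injured libraries of a pair of Lepr-cKO mice stood apart. That of animal SLRKO2wpc126 at 2 wpc held 33900 CPM of skeletal muscle markers against at most 27.2 CPM in any healthy nerve, and that of animal KO-169 at 4 wpc held the lowest share of mitochondrially encoded counts of the injured libraries (2.95%) and the highest Schwann cell marker sum of them. Calls of members that change without either of this pair are given with and without it. Other injured libraries at 2 wpc lay at the ends of the ranges above. That of Lepr-ctrl animal SLRKO2wpc144 had the highest mitochondrial share of all libraries (33.04%) and the lowest Schwann cell marker sum (11210 CPM). That of Lepr-cKO animal SLRKO2wpc135 came next on both (29.69% and 17580 CPM). Animals carry the names of the labels, in which the prefix SLRKO2wpc stands for every mouse of the 2 wpc cohort, whatever its genotype.

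The 250 bases before the start of Jun are shown because Jun is the one gene of the family whose promoter window held a listed motif. RefSeq promoter windows of 300 bases (250 before and 50 after the start, build GRCm38.p6) were at hand for 8 of the genes, and those of Fosl1 and Olig1 were not. They were searched on both strands for the AP-1 site TGACTCA, the cAMP response element TGACGTCA, the related Jun and Atf element TGACATCA and the CArG box bound by serum response factor. None of these motifs contains another. Capitals mark the single match, which starts 45 bases before the start site of Jun on chr4:95052223-95052472, minus strand, written 5′ to 3′.
Jun: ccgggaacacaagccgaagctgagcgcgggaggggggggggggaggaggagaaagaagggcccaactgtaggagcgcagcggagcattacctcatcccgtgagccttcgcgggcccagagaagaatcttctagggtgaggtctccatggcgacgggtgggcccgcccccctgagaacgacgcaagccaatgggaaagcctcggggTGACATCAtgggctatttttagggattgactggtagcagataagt
Of 32851 promoter windows of that length, 3.62% held TGACATCA, 5.2% TGACTCA, 1.79% TGACGTCA and 1.63% a CArG box. A match is a stretch of letters, and binding was not measured.

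Compared per length as CPM per kilobase of exon (RPKM), the members spanned a wide range of levels. In injured Lepr-ctrl nerves at 2 wpc, the highest mean level was that of Fos (56.6 ± 25.3 RPKM, SD, n = 5), followed by Atf3 (52.5 ± 17.7), Jund (45.3 ± 17.8) and Jun (43.6 ± 7.12), and the differences among these 4 levels were smaller than the SD of Fos. Junb (30.8 ± 1.52 RPKM) and Fosl2 (26.5 ± 8.46) came next and also overlapped within their SD. Runx2 (7.44 ± 1.66 RPKM), Olig1 (5.79 ± 2.97) and Fosb (4.77 ± 3.82) formed a lower tier without a separation beyond their spread, and Fosl1 was last at 0.154 ± 0.0483 RPKM. In healthy Lepr-ctrl nerves at 2 wpc, Runx2 (0.435 ± 0.0748 RPKM) and Olig1 (0.0238 ± 0.0276 RPKM) were far below the Jun family, which had 12.4 to 26.0 RPKM. The order was not the same at 4 wpc, where Fos was at 5.70 ± 1.02 RPKM and Fosb at 0.224 ± 0.101 RPKM in healthy Lepr-ctrl nerves while Jund led at 37.0 ± 6.99 RPKM.

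**Figure D1:**
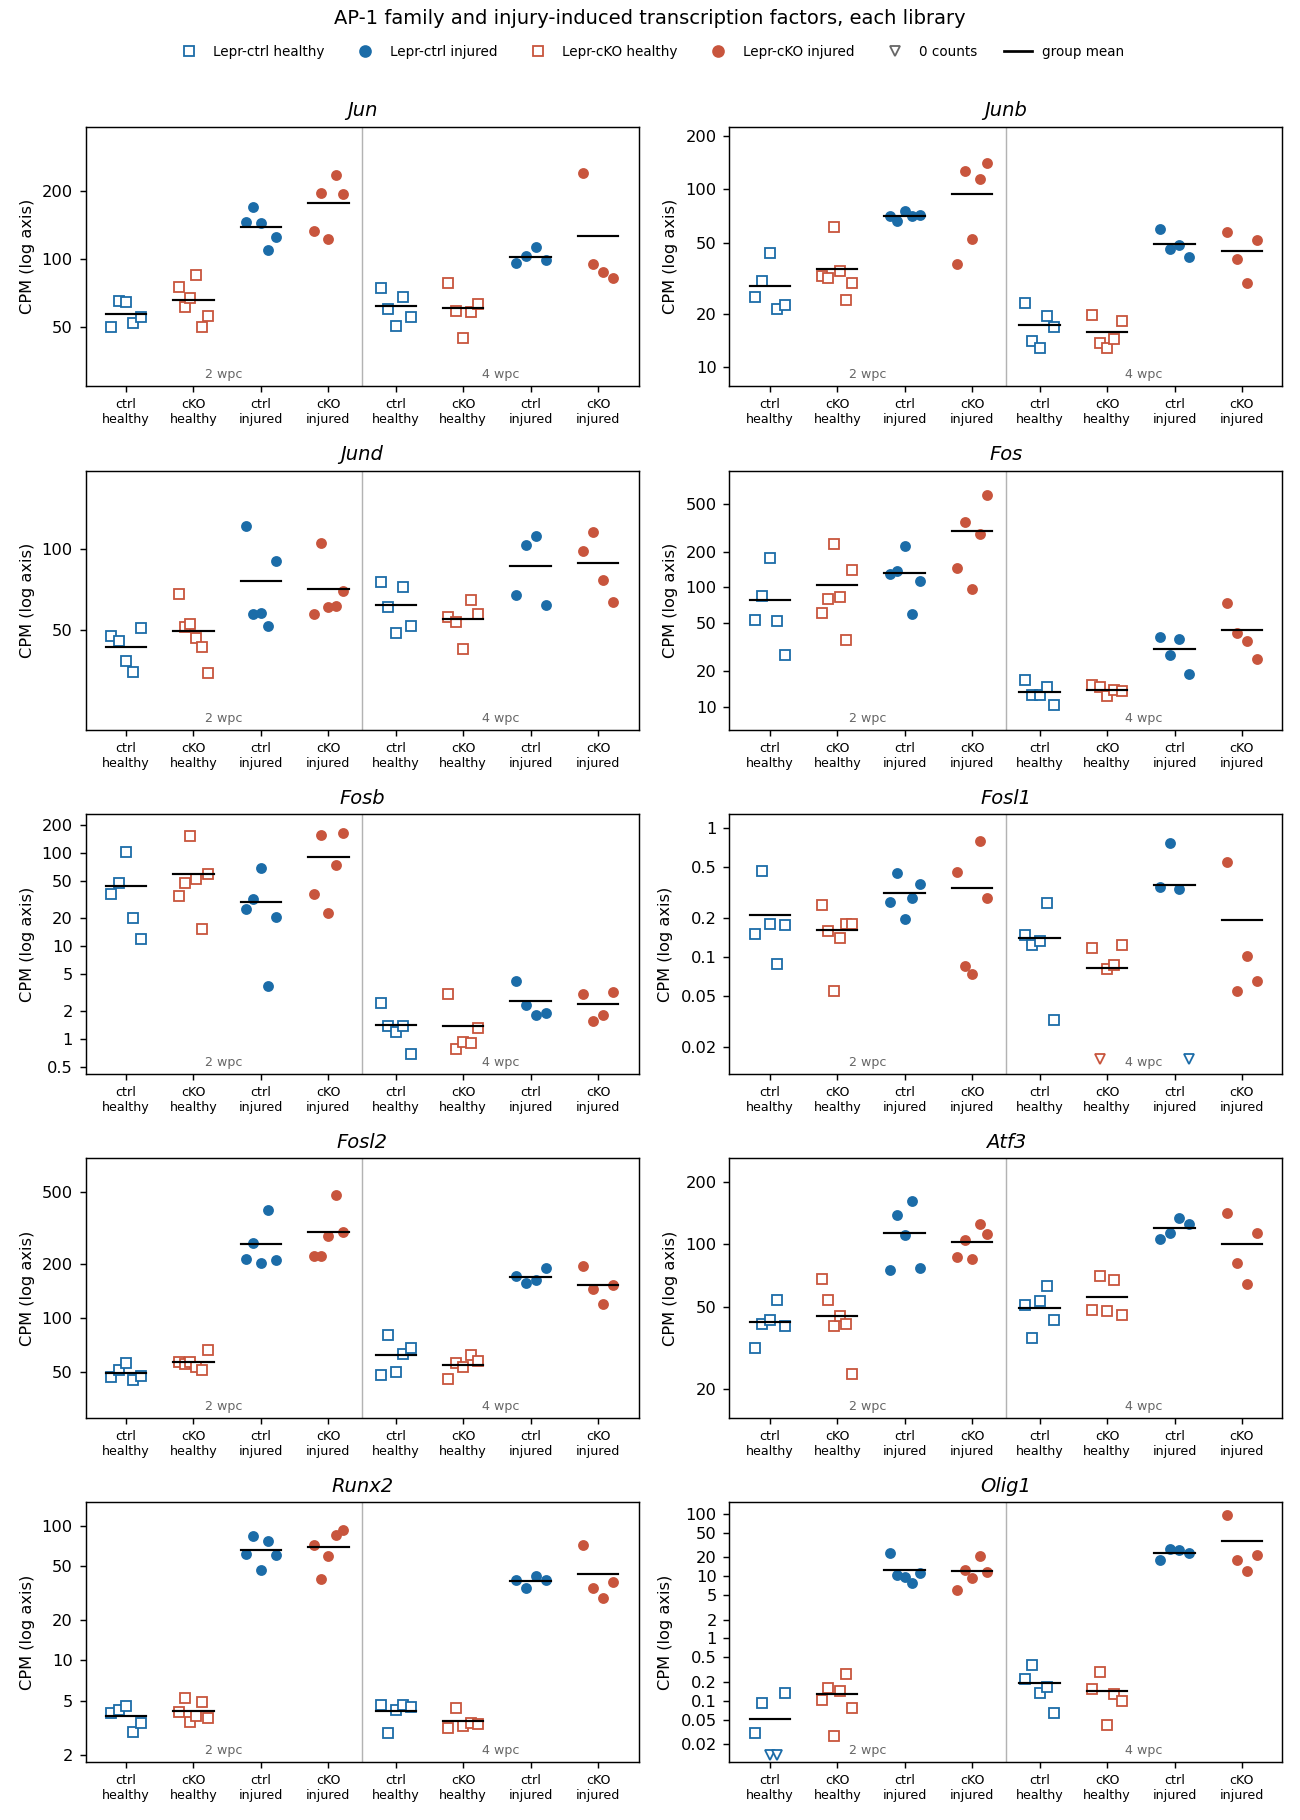
Level of each gene in every library as CPM on a log axis, by genotype, nerve and time; squares are healthy and circles injured nerves, bars are group means and triangles libraries with 0 counts. Runx2 and Olig1 separate injured from healthy nerves at both times, while Fos and Fosb separate 2 wpc from 4 wpc in healthy nerves.

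The first question was which of these genes respond to crush in each genotype and at each time. A gene was called where it passed edgeR at a false discovery rate of 0.05 (Benjamini-Hochberg, given here as the adjusted p) and changed more than 2-fold, which is 1 on the log2 scale, in either direction. Injured against healthy nerves, 6 of 10 members were higher in Lepr-ctrl at 2 wpc, where 19.8% of all tested genes were called higher, and 7 of 10 in Lepr-cKO at 2 wpc (20.9% of all genes). At 4 wpc it was 6 of 10 in Lepr-ctrl (20.1%) and 6 of 10 in Lepr-cKO (16.8%). No member was called lower in any of these comparisons, in which 14.3%, 13.4%, 15.9% and 10.8% of all genes were lower in the same order. The median log2 fold change of the members was 1.29, 1.41, 1.32 and 1.39, against 0.08, 0.10, 0.02 and 0.06 over all tested genes. Healthy and injured libraries did not overlap for 7, 5, 7 and 6 members, all of them higher with injury, against 23.8%, 20.5%, 27.4% and 21% of all genes. Junb, Fosl2, Runx2 and Olig1 were called in all 4 comparisons.

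**Figure D2:**
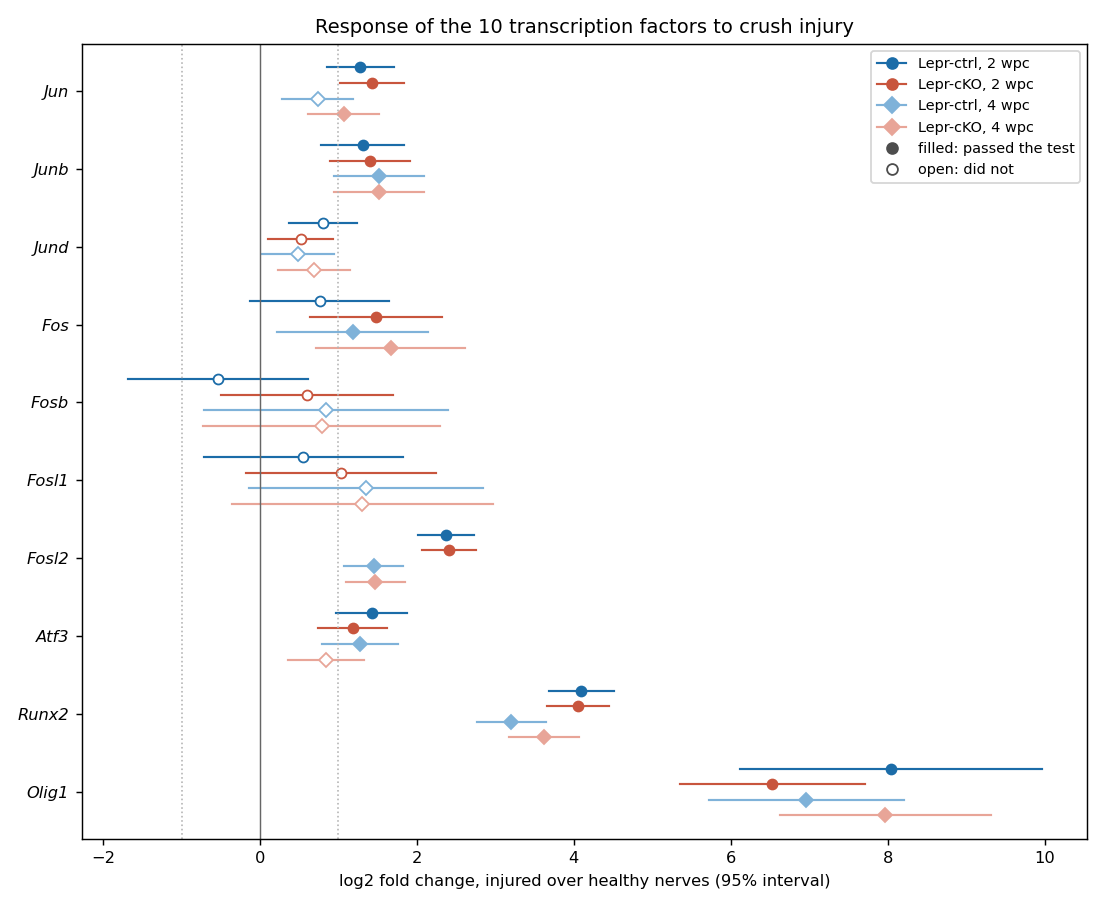
log2 fold change of each gene in injured over healthy nerves with its 95% interval, in 2 genotypes and at 2 times; filled symbols passed the test and dotted lines mark a log2 fold change of 1 in either direction. Olig1 and Runx2 lie farthest to the right, Fosl2 is lower at 4 wpc than at 2 wpc, and the intervals of Fosb and Fosl1 include 0 in every comparison.

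Among the Jun proteins, Jun (ENSMUSG00000052684, chr4:95049034-95052222, minus strand, a single exon) is the founding member and the one most tied to Schwann cell repair. At 2 wpc its level in Lepr-ctrl was 49.8, 64.9, 64.4, 52.0 and 55.4 CPM in healthy nerves and 145.6, 169.8, 144.1, 125.3 and 109.7 CPM in injured nerves. In Lepr-cKO it was 50.2 to 85.3 CPM (median 64.1, n = 6) in healthy nerves and 133, 197, 122, 236 and 194 CPM in injured nerves. In both genotypes each injured nerve lay above each healthy nerve. The increase was 1.28 ± 0.21 on the log2 scale (SE, adjusted p = 3.89e-06) in Lepr-ctrl and 1.42 ± 0.20 (adjusted p = 2.17e-07) in Lepr-cKO. At 4 wpc the injured Lepr-ctrl nerves had 95.6, 103, 113 and 98.8 CPM and the injured Lepr-cKO nerves 242.1, 94.98, 88.06 and 82.74 CPM, the first of these being animal KO-169. Healthy nerves ranged from 50.5 to 74.8 CPM in Lepr-ctrl and from 44.5 to 78.4 CPM in Lepr-cKO, so the groups again did not overlap. The increase in Lepr-ctrl was 0.73 ± 0.23 on the log2 scale (adjusted p = 0.00493), short of the fold threshold. That in Lepr-cKO was 1.07 ± 0.22 (adjusted p = 0.000144), and it fell under the threshold without animal KO-169 (0.55, adjusted p = 0.0112), without the healthy nerve of animal KO-176 (0.97, adjusted p = 0.00089) and with the animal as a block (0.95, adjusted p = 0.000153). The antisense gene Junos overlaps Jun and had 7 to 74 counts per library, against at least 1053 for Jun.

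Junb (ENSMUSG00000052837, chr8:84974484-84978718, minus strand), which pairs with Fos proteins and is itself an immediate-early gene, rose in all 4 comparisons by a log2 fold change of 1.31 to 1.52, with adjusted p from 1.04e-05 to 6.7e-05. At 2 wpc it measured 21.3 to 43.8 CPM in healthy and 65.9 to 75.7 CPM in injured Lepr-ctrl nerves, and 23.9 to 61.7 and 37.8 to 141 CPM in Lepr-cKO, where the groups overlapped. At 4 wpc it measured 12.8 to 22.8 against 41.7 to 59.7 CPM in Lepr-ctrl and 12.8 to 19.5 against 29.5 to 57.2 CPM in Lepr-cKO, without overlap. Prdx2 overlaps the Junb gene on the opposite strand, and without strand information reads of the overlap cannot be assigned with certainty. Jund (ENSMUSG00000071076, chr8:70698949-70700616, plus strand, a single exon), known as the Jun protein of steadier expression, ranged from 34.7 to 121 CPM. Its ratio of highest to lowest level over all 39 libraries, 3.5, was the smallest of the members. Within groups its spread was not always the smallest. Its log2 fold change was 0.80, 0.52, 0.48 and 0.68 in the order of comparisons above, with adjusted p of 0.00155, 0.0258, 0.0627 and 0.0105, and never reached the fold threshold.

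Of the Fos proteins, which bind DNA only as partners of a Jun protein, Fosl2 (ENSMUSG00000029135, chr5:32135801-32157842, plus strand) gave the clearest response. In Lepr-ctrl at 2 wpc it measured 47.1, 51.5, 56.1, 45.3 and 47.7 CPM in healthy nerves and 211, 262, 202, 210 and 397 CPM in injured nerves. In Lepr-cKO it measured 51.1 to 66.6 CPM (median 56.2, n = 6) in healthy and 222, 221, 285, 480 and 299 CPM in injured nerves. The lowest injured nerve was above the highest healthy nerve in each genotype, and the increase was 5.18-fold in Lepr-ctrl (95% interval 4.05 to 6.62, adjusted p = 3.81e-13) and 5.31-fold in Lepr-cKO (4.19 to 6.72, adjusted p = 5.09e-14). At 4 wpc the injured nerves measured 171.3, 155.8, 161.4 and 188.8 CPM in Lepr-ctrl and 193, 146, 119 and 152 CPM in Lepr-cKO, still above all healthy nerves (45.9 to 80.0 CPM). The increase was then 2.73-fold (2.10 to 3.55) and 2.77-fold (2.13 to 3.60). Fosl1 (ENSMUSG00000024912, chr19:5447547-5455946, plus strand), its close relative, had 0 to 20 counts per library with 15 of 39 libraries at 3 counts or fewer. Ccdc85b overlaps the Fosl1 gene on the opposite strand and had 1189 to 5285 counts per library, so reads of the overlap cannot be assigned with certainty. The log2 fold change of Fosl1 was 0.55, 1.03, 1.35 and 1.31 in the order of comparisons above and did not pass the test (adjusted p = 0.438, 0.12, 0.0957 and 0.15). Single libraries decided these values. The second passed without the injured nerve of animal SLRKO2wpc126 (1.31, adjusted p = 0.0496) and the third without that of animal WT-178 (1.695, adjusted p = 0.0354), while the fourth turned to -0.15 (adjusted p = 0.906) without animal KO-169.

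Fos (ENSMUSG00000021250, chr12:85473890-85477273, plus strand), the classical immediate-early partner of Jun, varied widely between mice at 2 wpc. Healthy Lepr-ctrl nerves measured 53.3, 84.2, 175.5, 52.6 and 27.0 CPM and injured ones 129.0, 138.2, 224.7, 113.0 and 60.2 CPM, and the groups overlapped. The log2 fold change of 0.76 ± 0.43 did not pass the test (adjusted p = 0.126). It passed with the animal as a block (1.11, adjusted p = 0.0446) and without the healthy nerve of animal SLRKO2wpc130 (1.301, adjusted p = 0.0111), which had the highest healthy level. In Lepr-cKO healthy nerves measured 36.6 to 233 CPM (median 82.0, n = 6) and injured nerves 146.9, 355, 96.6, 281 and 597 CPM. These groups overlapped too, and the log2 fold change of 1.48 ± 0.42 passed the test (adjusted p = 0.00237). At 4 wpc healthy nerves held a narrow range of 10.5 to 16.7 CPM over both genotypes, below every injured nerve (38.7, 27.2, 36.9 and 18.8 CPM in Lepr-ctrl, and 74.1, 41.3, 35.7 and 25.4 CPM in Lepr-cKO). The log2 fold change was 1.18 ± 0.47 in Lepr-ctrl (adjusted p = 0.0293) and 1.66 ± 0.47 in Lepr-cKO (adjusted p = 0.0032). The call in Lepr-ctrl was lost without the healthy nerve of animal WT-178 (1.09, adjusted p = 0.0625) or the injured nerve of animal WT-170 (1.03, adjusted p = 0.0816) or WT-173 (1.07, adjusted p = 0.0721).

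Fosb (ENSMUSG00000003545, chr7:19302696-19310051, minus strand), whose protein and its short splice form accumulate with repeated stimulation, did not pass the test with injury in any comparison. Its log2 fold change was -0.54, 0.60, 0.84 and 0.79, with adjusted p of 0.41, 0.328, 0.347 and 0.376. The first of these turned to 0.06 (adjusted p = 0.935) without the healthy nerve of animal SLRKO2wpc130. Within groups it differed widely, for example 3.65 to 68.2 CPM among the 5 injured Lepr-ctrl nerves at 2 wpc.

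Atf3 (ENSMUSG00000026628, chr1:191170296-191218039, minus strand), a stress-induced factor that pairs with Jun, was called higher in 3 of 4 comparisons. At 2 wpc it measured 31.9 to 54.0 CPM in healthy and 75.3 to 162 CPM in injured Lepr-ctrl nerves, and 23.7 to 68.0 and 85.4 to 125.4 CPM in Lepr-cKO, without overlap in either genotype. The log2 fold change was 1.42 ± 0.22 and 1.18 ± 0.21 (adjusted p = 1.88e-06 and 1.3e-05). At 4 wpc it was 1.28 ± 0.24 in Lepr-ctrl (adjusted p = 2.04e-05). In Lepr-cKO at 4 wpc the groups overlapped (45.9 to 70.7 CPM healthy, 64.4 to 142 CPM injured), and the log2 fold change of 0.84 ± 0.24 stayed under the fold threshold (adjusted p = 0.00311). The difference between genotypes in that response was -0.44 and did not pass the test (95% interval -1.12 to 0.25, adjusted p = 0.64).

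Runx2 (ENSMUSG00000039153, chr17:44495987-44814797, minus strand), a Runt-domain factor required for bone formation, went from a low level to a moderate one. Healthy nerves of all 4 groups lay between 2.88 and 5.26 CPM. At 2 wpc injured nerves measured 61.1, 83.7, 46.9, 60.1 and 77.2 CPM in Lepr-ctrl and 71.4, 40.4, 59.8, 85.3 and 92.8 CPM in Lepr-cKO. At 4 wpc they measured 39.2, 34.3, 42.2 and 39.4 CPM in Lepr-ctrl and 72.1, 34.5, 29.0 and 37.9 CPM in Lepr-cKO, with animal KO-169 the highest. The lowest injured nerve was thus several times above the highest healthy one. The increase was 17.1-fold (95% interval 12.8 to 22.8) in Lepr-ctrl and 16.6-fold (12.6 to 21.8) in Lepr-cKO at 2 wpc, and 9.21-fold (6.77 to 12.5) and 12.3-fold (9.01 to 16.7) at 4 wpc, with adjusted p from 2e-17 to 9.54e-14. Of the listed bone and cartilage markers, Sp7 averaged 0.903 CPM in healthy and 0.594 CPM in injured nerves, Bglap 0.0234 and 0.0658 CPM, and Ibsp 0.0284 and 0.0123 CPM. The cartilage genes of that list averaged 14.7 CPM in healthy and 2.53 CPM in injured nerves (Col2a1) and 0.00732 and 0.0655 CPM (Acan).

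Olig1 (ENSMUSG00000046160, chr16:91269772-91271933, plus strand, a single exon), a helix-loop-helix factor of the oligodendrocyte lineage, was close to undetected in healthy nerves, with 0 to 9 counts per library in all 21. At 2 wpc injured nerves measured 23.8, 10.4, 9.60, 11.2 and 7.69 CPM in Lepr-ctrl and 6.05, 12.6, 9.22, 21.1 and 11.7 CPM in Lepr-cKO. At 4 wpc they measured 17.9, 27.1, 26.7 and 23.9 CPM in Lepr-ctrl and 95.1, 18.1, 12.2 and 21.7 CPM in Lepr-cKO, the first again from animal KO-169. No healthy nerve exceeded 0.375 CPM, so all groups were apart. Because the healthy counts are so few, the fitted fold change depends on the prior count, and the ratio of summed counts scaled by library size is given instead, with an exact 95% interval that covers counting error only. It was 296 (143.5 to 738) for 1707 against 7 counts in Lepr-ctrl at 2 wpc, 93.4 (63.9 to 142) in Lepr-cKO at 2 wpc, 132 (90.5 to 201) in Lepr-ctrl at 4 wpc and 306 (198 to 502) in Lepr-cKO at 4 wpc. Of the 3493 injured counts behind the last ratio 904 remained without animal KO-169, and the ratio was then 120 (77.0 to 197). Without the healthy nerve of animal SLRKO2wpc147, the first ratio was 448 for 1707 against 4 counts. The adjusted p of the model was 4.18e-12 or lower in each.

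Other genes of the pathway were followed as lists, to be read here and in the next paragraph beside the shares of all tested genes. In the order of comparisons used above, 19.8%, 20.9%, 20.1% and 16.8% of all genes were called higher. Called lower were 14.3%, 13.4%, 15.9% and 10.8%, and the median log2 fold change over all genes was 0.08, 0.10, 0.02 and 0.06. Of 17 tested partners with a basic leucine zipper, 5, 5, 4 and 5 rose and 2, 2, 2 and 1 fell with injury in the order of comparisons used above, and the median log2 fold change was 0.45, 0.32, 0.26 and 0.23. Batf, an AP-1 factor of lymphocytes, rose in every comparison (log2 fold change 2.95 to 4.56). Its fold change rests on few healthy counts, with healthy group means of 0.171 to 0.286 CPM. Atf5 (1.12 to 2.24) and Crem, a factor that responds to cyclic AMP (1.26 to 1.59), also rose in every comparison, while Maf fell (-2.06 to -1.28). Of 4 tested relatives of Runx2 and Olig1, 3 rose in every comparison, namely the haematopoietic factor Runx1 (1.82 to 2.52), Runx3 (3.34 to 3.52), a factor of T cells and sensory neurons, and Olig2, the partner of Olig1 in the oligodendrocyte lineage. Olig2 had 0 counts in every healthy library and 8, 10, 23 and 37 counts summed over the injured groups, so a fold change cannot be given. Against a floor of 3 counts over the healthy group the ratio was 3.24, 4.66, 20 and 21.6, and these values do not cover counting error. At 2 wpc each injured group included libraries with 0 counts. At 4 wpc a single library held 11 of the 23 counts in Lepr-ctrl and 23 of the 37 in Lepr-cKO. Of 19 kinases and scaffolds upstream of Jun, none was called higher and 6, 6, 7 and 5 were called lower, with a median of -0.21, -0.18, -0.22 and -0.19. By the adjusted p alone, 4 were higher in each comparison and 10, 9, 9 and 10 lower. The named ones are the scaffolds Mapk8ip2 (-2.63 to -2.27) and Mapk8ip1 (-2.38 to -1.499), the kinase Map3k13 (-2.52 to -1.70) and Mapk10 (-2.09 to -1.88), the neuronal Jun kinase. Mapk8 and Mapk9, the broadly expressed Jun kinases, were not called. Mapk8 was higher by 0.345 to 0.486 in the 4 comparisons (adjusted p at most 0.000873), under the fold threshold, and Mapk9 differed by -0.185 to -0.144.

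Among 11 phosphatases that switch off these kinases, 4, 3, 3 and 3 rose and 2, 2, 3 and 3 fell, with medians of -0.16, 0.88, 0.16 and 0.00. Dusp2, abundant in lymphoid and myeloid cells, rose by a log2 fold change of 4.57 to 6.00 and Dusp10, which acts on Jun kinases and p38, by 1.501 to 3.21, whereas Dusp14 (-2.19 to -1.34) and Dusp4 (-2.44 to -1.12) fell. Of 17 other immediate-early genes 8, 12, 9 and 7 rose and 0, 0, 1 and 0 fell, with medians of 0.91, 1.43, 1.00 and 0.78. Npas4 (3.28 to 4.50), Egr3 (1.64 to 2.83), Myc (1.32 to 2.09) and Ier5 (1.26 to 1.75) were called in all 4. Healthy group means of Npas4 were only 0.0504 to 0.0952 CPM and injured ones 0.676 to 1.31 CPM, so its fold change rests on few counts. Of 10 genes linked to Jun or to the repair state of Schwann cells 6, 6, 4 and 5 rose and 3 fell in each comparison, with medians of 1.97, 1.84, 0.40 and 1.46. Gap43, a growth-associated protein of axons and repair cells, rose by 4.26 to 5.02, the neurotrophic ligands Artn by 3.90 to 4.71 and Gdnf by 2.79 to 4.25, and Cntf, a neurotrophic factor of mature myelinating cells, fell (-4.58 to -2.12). Also called in all 4 were Bdnf, which rose (2.51 to 3.79), and Cdh2 (-4.45 to -2.52) and Lif (-1.265 to -1.129), which fell. Few healthy counts limit the fold changes of Artn, Bdnf and Dusp2 too. Their healthy group means were 0.155 to 0.277, 0.121 to 0.18 and 0.17 to 0.53 CPM.

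The next question was how the levels differ between the 2 times. Injured nerves at 4 wpc against 2 wpc had lower Fos and Fosb in Lepr-ctrl, 2 of 10 members with 4.31% of all genes called lower, and lower Junb, Fos and Fosb in Lepr-cKO, 3 of 10 with 3.18% of all genes. Fos differed by a log2 fold change of -2.13 ± 0.47 (adjusted p = 0.00227) and -2.74 ± 0.46 (adjusted p = 0.000303) in the genotypes, and Fosb by -3.58 ± 0.70 (adjusted p = 0.000715) and -5.24 ± 0.67 (adjusted p = 1.53e-05). Junb in Lepr-cKO differed by -1.07 ± 0.28 (adjusted p = 0.00877) and fell short of the fold threshold without any of the injured nerves of animals SLRKO2wpc126, SLRKO2wpc135, SLRKO2wpc138 and KO-176 (-0.997 to -0.931). None of 10 members was higher in Lepr-ctrl (3.02% of all genes) and Olig1 was higher in Lepr-cKO (2.11% of all genes), by 1.604 ± 0.427 (adjusted p = 0.00908). That call was lost without animal KO-169 (0.48, adjusted p = 0.429). Without the same nerve, 2 members that had not been called lower in injured Lepr-cKO nerves at 4 wpc were called so, namely Jun (-1.03, adjusted p = 0.00039, against -0.47 and 0.157 with it) and Runx2 (-1.08, adjusted p = 0.000496, against -0.69 and 0.0242). Fosl2 was lower there by -0.981 ± 0.185 (adjusted p = 0.000489), just short of the fold threshold, and passed it under 10 other settings (-1.21 to -1.01), among them the fits without animal SLRKO2wpc126 and without animal KO-169. In Lepr-ctrl the increase of Olig1 of 0.93 did not pass the test (adjusted p = 0.117) and passed without the injured nerve of animal SLRKO2wpc123 (1.29, adjusted p = 0.0409).

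The healthy nerves gave the same contrast for Fos and Fosb. Here 11 genes were called higher and 21 lower at 4 wpc in Lepr-ctrl (0.0596% and 0.114% of all genes), and 4 higher and 18 lower in Lepr-cKO (0.0217% and 0.0976%). Of the members, 2 of 10 were lower in Lepr-ctrl and 3 of 10 in Lepr-cKO, and none was higher. Fosb was the gene with the largest decrease in both lists. In Lepr-ctrl it measured 36.0, 47.2, 102, 19.9 and 11.9 CPM at 2 wpc and 2.41, 1.38, 1.16, 1.37 and 0.679 CPM at 4 wpc. In Lepr-cKO it measured 15.1 to 150 CPM (median 49.3, n = 6) at 2 wpc and 3.005, 0.769, 0.929, 0.907 and 1.29 CPM at 4 wpc. The cohorts did not overlap in either genotype, and the log2 fold change was -4.96 ± 0.64 (adjusted p = 0.000131) and -5.43 ± 0.62 (adjusted p = 2.8e-05). Fos differed by -2.55 ± 0.44 (adjusted p = 0.00326) and -2.92 ± 0.42 (adjusted p = 0.000665), also without overlap.

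Junb was lower in healthy Lepr-cKO nerves (-1.19 ± 0.25, adjusted p = 0.0301), a call lost without the healthy nerve of animal SLRKO2wpc128, KO-175, KO-176, KO-177 or KO-179 (adjusted p from 0.0643 to 0.127). In Lepr-ctrl its difference of -0.74 did not pass the test (adjusted p = 0.14). The log2 difference of Jun between times was 0.11 and -0.11 in healthy nerves and that of Atf3 0.23 and 0.30, none of which passed the test. The genes that moved with Fos and Fosb in healthy nerves included the immediate-early gene Egr1 (-3.08 and -3.43, adjusted p = 0.000266 and 3.34e-05), and 3 of 17 genes of the immediate-early list were lower in Lepr-ctrl and 5 of 17 in Lepr-cKO. In all 9 genes were lower in both genotypes, 42.9% of the Lepr-ctrl and 50% of the Lepr-cKO list, among them Fos, Fosb and 3 genes of the immediate-early list. The values of 5 genes with known parts in the circadian clock are given as a description, since these were picked after their values had been seen. In healthy nerves Arntl differed by 1.97 and 2.19, Npas2 by 2.46 and 2.28, Nfil3 by 1.48 and 1.32, Ciart by -1.504 and -1.397 and Per2 by -0.71 (adjusted p = 0.107) and -1.03. In injured nerves the values were 1.86 and 1.82 for Arntl, 1.45 and 1.47 for Npas2, 0.10 and -0.29 for Nfil3 (adjusted p = 0.826 and 0.487), -1.35 and -1.51 for Ciart and -1.23 and -1.36 for Per2. The part of the hour of collection or of tissue handling, which the labels do not give, was not tested.

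**Figure D3:**
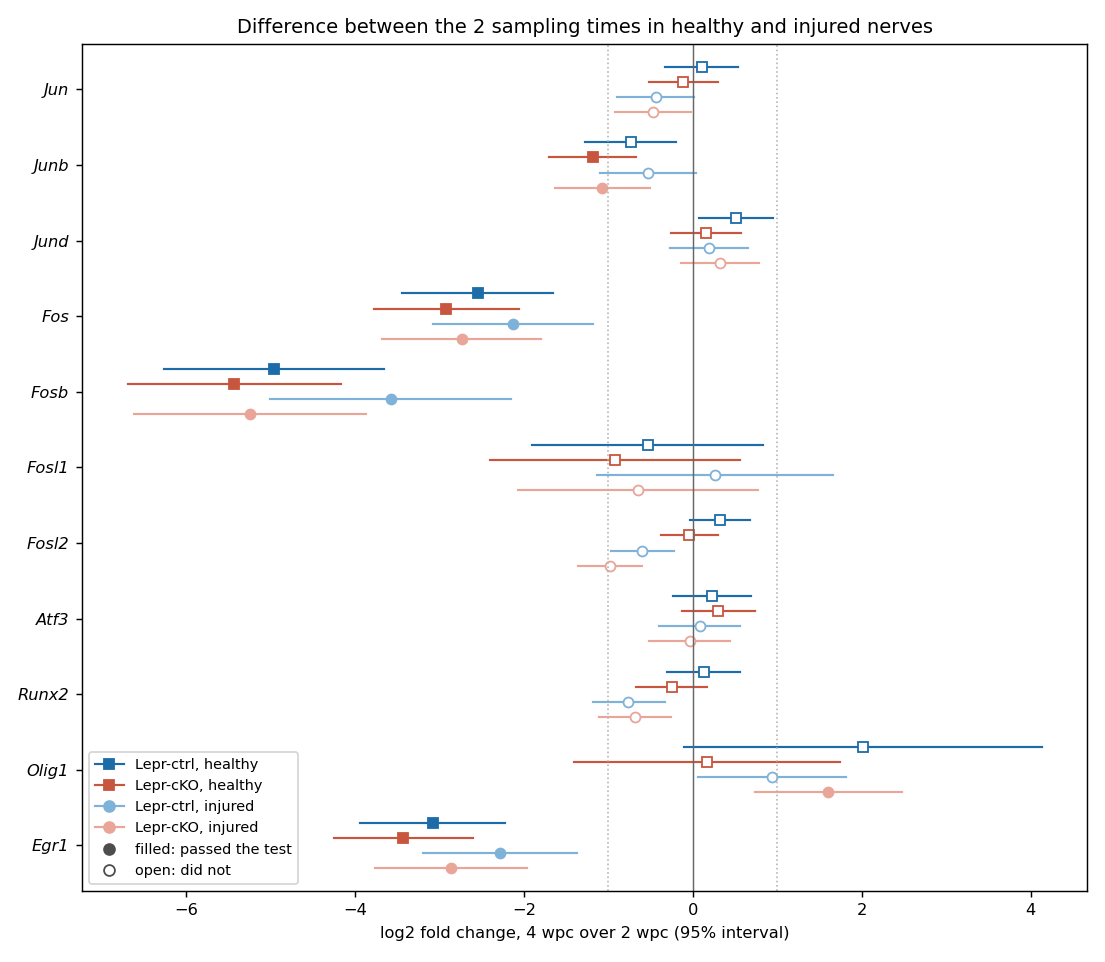
log2 fold change of each gene and of Egr1 at 4 wpc over 2 wpc with its 95% interval, separately in healthy and injured nerves of each genotype; filled symbols passed the test. Fos, Fosb and Egr1 lie left of -2 in healthy and injured nerves alike, while Fosl2 and Runx2 are below 0 in injured nerves and near 0 in healthy ones.

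Comparing the response to injury itself between times takes the healthy nerves of each cohort into account. No member passed both thresholds in Lepr-ctrl (4.42% of all genes did in either direction) or Lepr-cKO (1.42%). The response of Fos at 4 wpc minus that at 2 wpc was 0.42 (95% interval -0.88 to 1.73, adjusted p = 0.738) in Lepr-ctrl and 0.18 (-1.09 to 1.46, adjusted p = 0.942) in Lepr-cKO. Fosl2 was the member whose response was smaller at 4 wpc at an adjusted p under 0.05 in both genotypes, by -0.92 ± 0.26 (adjusted p = 0.0193) in Lepr-ctrl and -0.94 ± 0.25 (adjusted p = 0.0382) in Lepr-cKO, just short of the fold threshold. Leaving out each library in turn gave -1.02 to -0.71 in Lepr-ctrl, with every adjusted p under 0.05 in 19 fits. The smallest difference there, -0.71, came without the injured nerve of animal SLRKO2wpc144 (adjusted p = 0.0391). In Lepr-cKO the difference was -1.09 to -0.71. Its adjusted p rose to 0.05 or more in 10 of 20 fits (at most 0.103, without the injured nerve of animal SLRKO2wpc135). It passed both thresholds in Lepr-cKO without the injured nerve of animal SLRKO2wpc126 (-1.06, adjusted p = 0.0129), KO-169 (-1.09, adjusted p = 0.0182) or SLRKO2wpc125 or the healthy nerve of animal SLRKO2wpc138, and in Lepr-ctrl without the injured nerve of animal SLRKO2wpc131, SLRKO2wpc147 or WT-178 or the healthy nerve of animal WT-168. The response of Runx2 was smaller by -0.89 ± 0.30 in Lepr-ctrl, with adjusted p = 0.0556, and by -0.43 ± 0.29 in Lepr-cKO, with adjusted p = 0.535. The response of Jun differed by -0.54 (95% interval -1.17 to 0.08) and -0.36 (-0.97 to 0.25), and neither passed the test.

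The study's main comparison is between genotypes. No member was called in injured nerves at 2 wpc, where 0.569% of all genes were called in either direction, or at 4 wpc (0.45%). In healthy nerves no member was called either at 2 wpc or at 4 wpc, with 0.00542% of all genes called at each time, and none when the injury responses of the genotypes were compared at each time (0% and 0%). DESeq2 called no member in these 6 comparisons either. The background at 2 wpc rests on animal SLRKO2wpc126, since 105 genes were called with it and 1 without it, and DESeq2 called 26. By an unadjusted p under 0.05, 2 members differed in injured nerves at 2 wpc, where 1187 of the 18442 tested genes did. In each of the other 5 of these comparisons 0 members did, against 3667 genes in injured nerves at 4 wpc and 222 to 2013 in the rest. The 2 members were Fosb, at 24.9, 32.1, 68.2, 20.2 and 3.65 CPM in Lepr-ctrl against 36.3, 157, 22.7, 74.5 and 161 CPM in Lepr-cKO, and Fos, at the values given above. The groups overlapped for each, and the log2 fold change of 1.597 for Fosb (95% interval 0.45 to 2.74, adjusted p = 0.443) and of 1.15 for Fos (0.27 to 2.03, adjusted p = 0.507) did not pass the test. Animal SLRKO2wpc126, whose nerve held muscle RNA, had the second highest Fosb and Fos of the injured Lepr-cKO nerves at 2 wpc.

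Jun differed between genotypes by 0.35 (95% interval -0.08 to 0.77) at 2 wpc and by 0.31 (-0.17 to 0.79) at 4 wpc in injured nerves, and the second value turned to -0.21 (adjusted p = 0.654) without animal KO-169. The interval for Runx2 was -0.31 to 0.49 at 2 wpc and -0.29 to 0.62 at 4 wpc, that for Fosl2 -0.12 to 0.59 and -0.55 to 0.25, and that for Atf3 -0.59 to 0.32 and -0.76 to 0.26, so that a difference of 1 on the log2 scale lay outside each of them. Olig1 was less well resolved, from -0.87 to 0.77 at 2 wpc and from -0.29 to 1.54 at 4 wpc. Its value at 4 wpc went from 0.62 to -0.46 without animal KO-169.

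**Figure D4:**
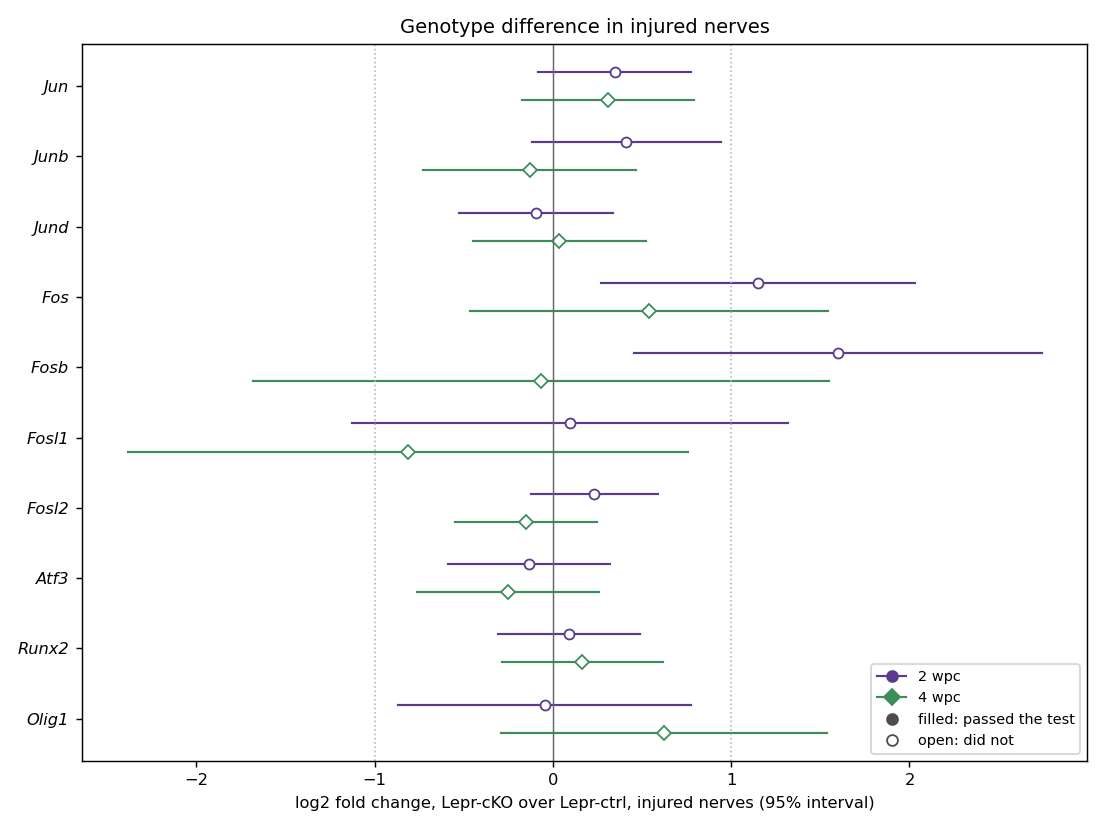
log2 fold change of each gene in Lepr-cKO over Lepr-ctrl in injured nerves with its 95% interval, at 2 wpc (circles) and 4 wpc (diamonds); all symbols are open because none passed the test. The intervals of Fos and Fosb at 2 wpc are the ones that do not include 0.

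Whether members varied together among the 18 injured nerves was asked for 6 pairs, after subtracting the group mean from each log2 CPM value. Two-sided permutation p-values came from 100000 permutations within groups and were adjusted over the 6 pairs. Fos and Egr1 were most closely related, with Pearson's r = 0.898 (permutation p = 9e-05, adjusted 0.00054) and Spearman's rho = 0.872 (permutation p = 0.00012, adjusted 0.00072). Without the 2 nerves farthest from the median of Fos, r was 0.851 (adjusted permutation p = 0.00258). Within cohorts it was 0.939 at 2 wpc (n = 10, adjusted permutation p = 0.0109) and 0.756 at 4 wpc (n = 8, adjusted permutation p = 0.213). Fos and Junb had r = 0.692 (permutation p = 0.0187, adjusted 0.0373) and rho = 0.736 (permutation p = 0.00567, adjusted 0.0113), and without the 2 farthest nerves r was 0.541 (permutation p = 0.0445, adjusted 0.134) and rho 0.629 (adjusted permutation p = 0.0618). Without animal SLRKO2wpc126 r was 0.675 (adjusted permutation p = 0.0725) and rho 0.672 (adjusted 0.0391), so that the call by r depends on single nerves. Within cohorts it was 0.753 at 2 wpc and 0.473 at 4 wpc (adjusted permutation p = 0.0956 and 0.404).

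Jun and Olig1, whose expression in repair Schwann cells is known to depend on Jun, had r = 0.844 (permutation p = 0.00451, adjusted 0.0135) and rho = 0.769 (permutation p = 0.00363, adjusted 0.0109). Without the nerves of animals KO-169 and SLRKO2wpc135, the 2 farthest from the median of Jun, r was 0.481 (adjusted permutation p = 0.263), so that the call rests on them. It was 0.676 within 2 wpc and 0.942 within 4 wpc, with adjusted permutation p of 0.0956 and 0.239. Jun and Runx2 had r = 0.553 and rho = 0.467 (permutation p = 0.108 for each, adjusted 0.129 for each), and r was -0.05 without the 2 farthest nerves. Without animal SLRKO2wpc126 r was 0.749 (adjusted permutation p = 0.0543) and rho 0.659 (adjusted permutation p = 0.0391), which passed by rho. Within cohorts r was 0.141 at 2 wpc and 0.925 at 4 wpc. Jun and Atf3 had r = 0.499 (permutation p = 0.0885, adjusted 0.129) and rho = 0.482 (permutation p = 0.0702, adjusted 0.105), and r was 0.139 without the 2 farthest nerves. Within cohorts it was 0.312 at 2 wpc and 0.695 at 4 wpc. Jun and Lepr were tested because the paper links them. At an earlier time after crush, it reports no induction of Lepr mRNA or protein in mice lacking cJun in Schwann cells. Here Jun and Lepr had r = 0.15 (permutation p = 0.495, adjusted 0.495) and rho = 0.115 (permutation p = 0.663, adjusted 0.663). The r was 0.41 within 2 wpc, -0.09 within 4 wpc and -0.07 without the 2 farthest nerves. A relation of Jun and Lepr levels across mice was not detectable with these 18 nerves. Such a correlation cannot decide whether Jun is needed to induce Lepr, since Jun was not removed in any of these mice.

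**Figure D5:**
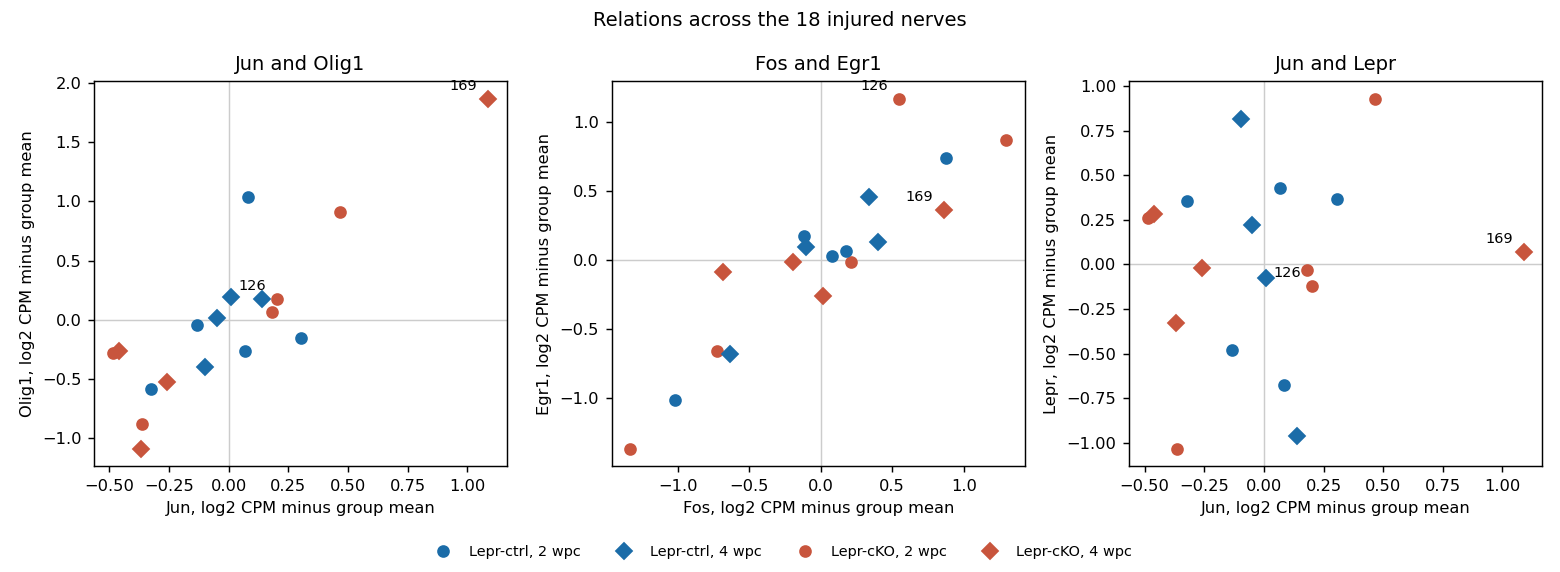
Log2 CPM minus the group mean for 3 pairs of genes in the 18 injured nerves, circles for 2 wpc and diamonds for 4 wpc, with animals SLRKO2wpc126 and KO-169 marked. Fos and Egr1 follow a line through all nerves (r = 0.898), the relation of Jun and Olig1 is drawn out by animal KO-169, and Jun and Lepr show no trend (r = 0.15).

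Over all 39 libraries, the genes with the most similar log2 CPM pattern were found for each member. These correlations are descriptions over libraries that share groups, animals and depth. Fos was most like Egr1 (r = 0.97), Ier2 (0.922) and Zfp36 (0.909), Fosb like Egr1 (0.927), Fos (0.908) and Dusp1 (0.832), and Junb like Ier2 (0.943), Btg2 (0.908) and Gm26532 (0.906). Jun was most like Trib1 (0.937), Fkbp10 (0.925) and Tubb3 (0.921), Atf3 like Cpne2 (0.917), Ppp1r18 (0.911) and Arsi (0.906), and Jund like Scand1 (0.891), Siva1 (0.871) and Znhit2 (0.869). Runx2 was most like Abca1 (0.994), Dclk1 (0.987) and Tnc (0.985), Fosl2 like Il2rg (0.966), Runx2 (0.964) and Abca1 (0.963), and Olig1 like Duoxa1 (0.98), Stac2 (0.976) and Wnt10b (0.974). The closest genes to Fosl1, Kcnd3 (0.662), Pcdhb7 (0.649) and 9530062K07Rik (0.636), were no close match. Among the members, Fos and Fosb stayed related at r = 0.85 once the group means were removed, Fos and Junb at 0.727 and Junb and Fosb at 0.706, and no other pair exceeded 0.6.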

How the data were processed

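According to the methods and labels, the authors made TruSeq libraries and sequenced 50 bases from 1 end. STAR 2.5 placed the reads on GRCm38 with up to 2 mismatches, and featureCounts 1.5.0-p1 gave the counts. bcl2fastq 2.20.0.422 is also named in the submitters' processing notes. The deposited values are raw counts per gene for 55573 genes. The kit does not mark strand, so reads of overlapping genes are uncertain, and the handling of reads with several alignments is not given in the sources used here.

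Libraries were grouped by the labels (8 groups). edgeR 4.0.16 in R 4.3.3 was fitted over all 39 libraries with TMM scaling, a filter by group (minimum count 10, minimum total 15), the quasi-likelihood F test and Benjamini-Hochberg adjustment. Standard errors are Wald errors of the fit. log2 CPM used a prior count of 2, and RPKM the merged exon length of GENCODE M21, which named 99.8% of the genes. Replicates are nerves of separate animals. Nerves of the same animal are paired in the labels (17 pairs); the correlation of their deviations from group means ran from -0.116 to 0.567 and was above 0.1 in 14 pairs. Scripts were tested on simulated counts.

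The members, the lists and the tests were chosen with earlier results of these data known. One gene of the list of leucine zipper partners is not reported here and was left out of its counts. Named genes are the members, Lepr, up to 4 genes per pathway list called in all 4 injury comparisons, taken by mean absolute log2 fold change, and the 3 genes most like each member. Outside this rule, Egr1 is named as part of a tested relation, and Junos, Prdx2 and Ccdc85b because they overlap members. The bone and cartilage markers, Bdnf, Cdh2, Lif, Mapk8, Mapk9 and the clock genes were named after their values were seen. Alternatives were DESeq2 1.42.0, its size factors, mitochondrially encoded genes left out, no filter, only the groups compared, no fold threshold, the animal as a block, each library left out, a prior count of 0.5, and, chosen after seeing the data, both injured nerves of animals SLRKO2wpc126 and KO-169 left out.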

Additional observations from a re-analysis of the deposited data

Results flagged for a closer look

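In 80 combinations of member and group, 12 held a library whose CPM value stood apart from the rest of its group by Dixon's criterion, which chance alone meets in about 1 in 20 groups. The injured Lepr-cKO nerve of animal KO-169 at 4 wpc accounted for 3 of them, with Jun at 242 CPM (82.7 to 94.98 in the other nerves of its group), Olig1 at 95.1 CPM (12.2 to 21.7) and Fosl1 at 0.551 CPM (0.0547 to 0.101). Its fibroblast marker sum (13200 CPM) was the highest of its group as well. The healthy nerve of the same animal had Fosb at 3.005 CPM (0.769 to 1.29).

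At 2 wpc, the healthy Lepr-cKO nerve of animal SLRKO2wpc128 stood apart with Fosb at 150 CPM (15.1 to 59.3) and Junb at 61.7 CPM (23.9 to 34.5), and that of animal SLRKO2wpc138 with Fosl2 at 66.6 CPM (51.1 to 56.7). The injured Lepr-cKO nerve of animal SLRKO2wpc126, with muscle RNA, had Jund at 105 CPM (57.3 to 69.7). In Lepr-ctrl mice, animal SLRKO2wpc123 had Fosl1 at 0.465 CPM in its healthy nerve (0.0886 to 0.182) and Olig1 at 23.8 CPM in its injured nerve (7.69 to 11.2). In healthy nerves at 4 wpc, Runx2 was highest in Lepr-cKO animal KO-175 at 4.43 CPM (3.16 to 3.41) and lowest in Lepr-ctrl animal WT-170 at 2.88 CPM (4.25 to 4.67).

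The response of Fosl2 to injury differed between 4 wpc and 2 wpc by -0.92 on the log2 scale in Lepr-ctrl (adjusted p = 0.0193) and by -0.94 in Lepr-cKO (adjusted p = 0.0382), each tested by the interaction in the edgeR model.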

How the results depend on the processing

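Over 4 injury comparisons, members kept their direction and their side of the threshold in all but 3, 2, 4 and 6 of at least 149 repeats each with other settings. Same-animal nerves as a block changed the number of members called from 6 to 7 in Lepr-ctrl at 2 wpc, where Fos was gained (1.11), and from 6 to 5 in Lepr-cKO at 4 wpc, where Jun was lost (0.95), and changed no other count. With only the compared groups fitted, 2 members rather than 4 were called between times in injured Lepr-cKO nerves, a fit with fewer libraries. Without the fold threshold, 4 rather than 2 were called in injured Lepr-ctrl nerves, and 1 rather than 0 for the response between times in each genotype. Leaving out libraries one at a time gave 0 to 2 members for that response in Lepr-ctrl and 0 to 1 in Lepr-cKO, and leaving out the injured nerves of animals SLRKO2wpc126 and KO-169 gave 1 in Lepr-cKO. DESeq2 gave the same number of called members in all 16 comparisons, but over all genes called 92 rather than 32 in healthy Lepr-ctrl and 51 rather than 22 in healthy Lepr-cKO nerves between times, 26 rather than 105 and 94 higher and 37 lower rather than 83 in all between genotypes in injured nerves, and 2 and 3 rather than 0 for the genotype difference in response.

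Without the nerves of SLRKO2wpc126 and KO-169, the 4 wpc difference of injured Lepr-cKO from injured Lepr-ctrl nerves turned negative for Jun (-0.204), Jund (-0.012), Olig1 (-0.462) and Runx2 (-0.192), as did the injury response of Fosl1 in Lepr-cKO at 4 wpc (-0.166). With single libraries left out, signs changed in results that did not pass the test. For the genotype difference at 4 wpc the range was -0.209 to 0.445 for Jun, -0.271 to 0.011 for Junb, -0.137 to 0.187 for Jund, -0.464 to 0.886 for Olig1, -0.197 to 0.297 for Runx2 and -0.238 to 0.251 for Fosb. At 2 wpc it was -0.252 to 0.031 for Atf3, -0.443 to 0.36 for Fosl1, -0.275 to 0.144 for Jund, -0.338 to 0.32 for Olig1 and -0.029 to 0.237 for Runx2. Between times it was -0.283 to 0.078 for Atf3 in injured Lepr-cKO nerves, -0.052 to 0.246 for Atf3 and -0.402 to 0.599 for Fosl1 in injured Lepr-ctrl nerves, and -0.093 to 0.016 for Fosl2 and -0.265 to 0.49 for Olig1 in healthy Lepr-cKO nerves. For injury it was -1.09 to 0.059 for Fosb in Lepr-ctrl at 2 wpc and -0.152 to 1.561 for Fosl1 in Lepr-cKO at 4 wpc.

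Pearson's r of Fos with Egr1 no longer passed within 4 wpc (0.756). That of Fos with Junb did not pass within 2 wpc (0.753), within 4 wpc (0.473), without the 2 farthest nerves (0.541), without SLRKO2wpc126 (0.675) or without SLRKO2wpc126 and KO-169 (0.645). That of Jun with Olig1 did not pass within 2 wpc (0.676), within 4 wpc (0.942), without the 2 farthest nerves (0.481) or without SLRKO2wpc126 and KO-169 (0.624), each with fewer nerves. Signs turned for Jun with Lepr within 4 wpc (-0.088) and without the 2 farthest nerves (-0.068), and for Jun with Runx2 without the 2 farthest nerves (-0.049). The cause of these changes was not tested. Low counts limit Fosl1, with at most 20 in any library, and the healthy level of Olig1, with at most 9. The part of the overlap with Ccdc85b in the counts of Fosl1 was not tested.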
